A study of Mus musculus with 8 samples.

Results

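The LIM homeobox and LIM-only factors described here are 10 mouse genes, namely 6 LIM homeobox genes (Lhx1, Lhx2, Lhx5, Lhx9, Lmx1a and Isl1) and 4 LIM-only genes (Lmo1, Lmo2, Lmo3 and Lmo4). They were selected by symbol among the 16317 rows of the deposited value table, of which 14551 carry 1 gene symbol. Each of the 10 had 1 such row, called a transcript cluster. The family was picked because Lmo1 and Lhx2 were high and Lhx5 low in tumours, so the differences of all 10 members between tumours and precursors are given as a description. How many of them passed the fit over all rows is given only as a count beside the share of all rows, and no p is given for them. The choice made no use of the difference between the precursor groups, and that difference is tested.

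RNA was measured on 8 arrays, 1 per sample, in 3 groups. The 4 medulloblastomas came from adult mice of genotype RosaGli1-FLAG c/c;Math1-Cre;Ptc+/-, which carry both alterations studied. The 2 samples of Gli1-FLAG granule neuron precursors (GNPs) were purified from cerebella at postnatal day 8, from RosaGli1-FLAG c/c mice crossed with Math1Cre mice. The 2 samples of Ptc+/- GNPs were purified at the same age from Ptc+/- mice, which have 1 targeted allele of the hedgehog receptor gene Ptch1. The Math1 promoter limits Cre, and so the tagged Gli1, to cells that have used it, which include GNPs. The tumours were whole tissue and not purified cells, and no sample here is wild type. Disease cannot be told apart from age, purification and the joining of both alterations, in all of which the tumours differ from the GNPs. In such bulk samples fewer cells of a type and less RNA per cell cannot be told apart either.

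LIM domains are zinc-binding protein modules that hold other proteins. LIM homeodomain proteins join a pair of them to a homeodomain that binds DNA, whereas LIM-only proteins have the LIM domains and no DNA-binding part, and act as bridges. Both kinds bind the adaptor Ldb1, through which LIM-only proteins can compete with LIM homeodomain proteins or link basic helix-loop-helix (bHLH) and GATA factors into one complex. In the developing cerebellum Lhx1 and Lhx5 act in Purkinje cells, Lhx2 and Lhx9 mark neurons that leave the rhombic lip early for the cerebellar nuclei, and Lmx1a marks the roof plate and unipolar brush cells.

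Median deposited intensity per array ran from 134 to 310.0 in tumours, was 116 and 109 in Gli1-FLAG GNPs, against 283 and 125 in Ptc+/- GNPs, so arrays were quantile normalized before any comparison. Levels below are log2(normalized intensity + 1), in log2 units. The median SD between replicates over all rows was 0.299 in tumours, 0.0899 in Gli1-FLAG GNPs and 0.140 in Ptc+/- GNPs. The summed intensity of 8 GNP markers, Atoh1 and Zic1 among them, was 16389 to 23458 in tumours, 18835 and 19457 in Gli1-FLAG GNPs, against 18418 and 20137 in Ptc+/- GNPs. Single markers went opposite ways under this sum: all tumours lay above both Ptc+/- samples for 4 of the 8 and below both for 3. Atoh1 was 10.84 to 11.99 in tumours, 9.17 and 9.03 in Gli1-FLAG GNPs, against 9.43 and 9.41 in Ptc+/- GNPs. Pax6 was 9.26 to 10.52 in tumours, 10.85 and 10.94 in Gli1-FLAG GNPs, against 10.89 and 11.17 in Ptc+/- GNPs. Summed signals of 7 Purkinje cell markers were uneven among tumours, at 3539, 7232, 1737 and 748 in medulloblastomas 1 to 4, with 1381 and 1138 in Gli1-FLAG GNPs, against 768 and 780 in Ptc+/- GNPs. Among glia, 4 astrocyte markers summed to 219 to 2066 in tumours, 2639 and 2944 in Gli1-FLAG GNPs, against 2299 and 1459 in Ptc+/- GNPs. Likewise 4 oligodendrocyte markers summed to 140 to 3362 in tumours, 1924 and 2143 in Gli1-FLAG GNPs, against 1018 and 1141 in Ptc+/- GNPs. Of the astrocyte markers, Aqp4 and Aldh1l1 were lower in all tumours than in all GNP samples, while Gfap and S100b overlapped both GNP groups. S100b had a higher mean in tumours (8.32) than in Gli1-FLAG GNPs (7.31) and Ptc+/- GNPs (6.80). Without medulloblastomas 1 and 2 the differences from Ptc+/- GNPs were 2.10 for Lhx2, -4.09 for Lhx5, -0.38 for Lhx1, 2.80 for Lmo1, -1.79 for Lmo2 and 0.83 for Lmo4. Each array has its 25th percentile at 5.28, and signals below it are called dim. No detection call accompanies the values, so dim signals could not be told from background.

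The stretches before the starts of Lhx2 and Lmo1 are shown because these genes stood higher in tumours than in either GNP group. They are the 250 bases before the upstream one of the starts listed for each gene in RefSeq, build GRCm38.p6, 5′ to 3′. Lhx2 lies on the plus strand (chr2:38339031-38339280) and Lmo1 on the minus strand (chr7:109175208-109175457). Capitals mark TAATTA, a core that LIM homeodomain proteins can bind, and TGGGTGG, the reverse complement of CCACCCA, which is the consensus of Gli proteins without its first 2 letters.
Lhx2: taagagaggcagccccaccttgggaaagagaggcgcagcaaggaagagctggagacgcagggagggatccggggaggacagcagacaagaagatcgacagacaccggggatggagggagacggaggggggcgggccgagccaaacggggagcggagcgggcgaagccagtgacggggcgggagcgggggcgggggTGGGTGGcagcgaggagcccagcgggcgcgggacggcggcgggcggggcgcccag
Lmo1: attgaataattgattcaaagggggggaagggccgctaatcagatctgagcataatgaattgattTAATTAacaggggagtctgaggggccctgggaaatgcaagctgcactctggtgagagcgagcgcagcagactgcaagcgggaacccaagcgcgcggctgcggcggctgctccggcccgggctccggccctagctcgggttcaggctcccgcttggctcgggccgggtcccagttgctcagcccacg
Windows of 250 bases were listed for 8 of the 10 genes, over 12 starts, with Lhx5 and Lmo2 not analysed here. TAATTA, searched on both strands, begins 186 bases before this Lmo1 start and is also in the overlapping window of the other Lmo1 start. It was in 2 of the 12 windows and in 4.84% of 32851 mouse promoter windows of the same length. The full Gli consensus GACCACCCA, on both strands, was in 0 of the 12 and in 0.225% of all windows. The shorter CCACCCA, which the consensus contains, was in 3 of the 12, namely 1 window of Lhx2 and 2 overlapping windows of Lmo4, and in 8.11% of all. The GC content was 72.8% in the Lhx2 stretch and 61.2% in that of Lmo1, within a range of 50.0% to 82.4% over the 12 windows and beside a median of 52.4% over all. These matches describe letters only.

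Among the LIM homeobox genes, Lhx2 and Lhx5 stood apart between tumours and GNPs in opposite directions, while tumours and GNPs overlapped in Lhx1, Lhx9 and Lmx1a. Lhx2 (transcript cluster 6876532) encodes a factor that keeps progenitors of the forebrain, eye and hair follicle in an early state. Its level was 8.87, 8.10, 8.36 and 8.86 in medulloblastomas 1 to 4, 6.28 and 6.37 in Gli1-FLAG GNPs, against 6.32 and 6.77 in Ptc+/- GNPs. Every tumour lay above every GNP sample, and the GNP groups overlapped. The tumour mean of 8.55 ± 0.38 (SD, n = 4) was 2.00 ± 0.26 (SE), or 4.00-fold, above the Ptc+/- GNP mean of 6.55 ± 0.32 (SD, n = 2). It was 2.22 ± 0.26, or 4.67-fold, above the Gli1-FLAG GNP mean of 6.33 ± 0.07 (SD, n = 2). In the deposited intensities, which are not scaled between arrays, Lhx2 read 460, 271, 242 and 764 in the tumours, 45 and 47 in Gli1-FLAG GNPs, against 114 and 69 in Ptc+/- GNPs.

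Lhx5 (transcript cluster 6933965), which works with Lhx1 in the making of Purkinje cells, was lower in tumours. It read 4.12, 5.41, 4.02 and 4.29 in medulloblastomas 1 to 4, 7.90 and 7.97 in Gli1-FLAG GNPs, against 8.14 and 8.31 in Ptc+/- GNPs. All tumours lay below all GNP samples, 3 of the 4 in the dim range, and both Gli1-FLAG samples lay below both Ptc+/- samples. The tumour mean of 4.46 ± 0.64 (SD, n = 4) differed by -3.77 ± 0.37 (SE) from the Ptc+/- GNP mean of 8.22 ± 0.12 (SD, n = 2) and by -3.48 ± 0.37 from the Gli1-FLAG GNP mean of 7.94 ± 0.05 (SD, n = 2). Because the tumour signal is dim, the corresponding 13.6-fold and 11.2-fold are not exact. The deposited intensities were 14, 51, 14 and 39 in the tumours, 156 and 155 in Gli1-FLAG GNPs, against 448 and 234 in Ptc+/- GNPs. Medulloblastoma 2, with the highest Lhx5 of the tumours, also had the highest sums of Purkinje cell markers (7232) and of 7 GABA interneuron markers (3318, beside 995, 288 and 466 in medulloblastomas 1, 3 and 4, with 1030 and 906 in Gli1-FLAG GNPs, against 963 and 987 in Ptc+/- GNPs). Medulloblastoma 1, next in both sums (3539 and 995), had a lower Lhx5 (4.12) than medulloblastoma 4 (4.29, with sums of 748 and 466). Single GABA interneuron markers went opposite ways. All tumours lay below all GNP samples for Pax2 and Tfap2b and above them for Pvalb, while the other markers overlapped both GNP groups. The part of these markers in the Lhx5 levels was not tested.

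Lhx1 (transcript cluster 6790340), the partner of Lhx5 in Purkinje cells, kept a bright signal in all groups. Its level was 10.45, 10.47, 10.09 and 9.88 in medulloblastomas 1 to 4, 9.92 and 10.04 in Gli1-FLAG GNPs, against 10.40 and 10.33 in Ptc+/- GNPs. The tumours overlapped both GNP groups, with a difference of -0.14 ± 0.20 (SE) from Ptc+/- GNPs and 0.24 ± 0.20 from Gli1-FLAG GNPs. The order of the 4 tumours by Lhx1 was their order by the sum of Purkinje cell markers (7232, 3539, 1737 and 748 in medulloblastomas 2, 1, 3 and 4). Single markers did not all follow it. Pcp2 and Car8 were higher in medulloblastoma 4 than in 3, and the other markers lower. Foxp2 read 7.75, 7.36, 8.91 and 7.99 in medulloblastomas 1 to 4. It was thus lowest in medulloblastoma 2, where Lhx1 was highest, and highest in medulloblastoma 3. The Ptc+/- GNPs had sums of only 768 and 780 at Lhx1 levels as high as 10.40, and the part of these markers in Lhx1 was not tested.

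Lhx9, a close relative of Lhx2, lay in or near the dim range, with 1 of 4 tumours and all 4 GNP samples below 5.28. It read 5.92, 5.32, 5.66 and 4.49 in medulloblastomas 1 to 4, 4.99 and 4.61 in Gli1-FLAG GNPs, against 5.13 and 5.13 in Ptc+/- GNPs. The tumours overlapped both GNP groups. The difference of Lhx9 from Ptc+/- GNPs was 0.22 ± 0.37 (SE, 95% interval -0.65 to 1.09), and signals near background compress differences. Of 5 markers of the cerebellar nuclei and their early neurons, where both genes are used, the summed signal was 600 to 735 in tumours, 611 and 536 in Gli1-FLAG GNPs, against 697 and 716 in Ptc+/- GNPs. This sum joins markers that went opposite ways. All tumours lay above all GNP samples for Olig2 (7.57 to 8.67 in tumours) and Irx3 (6.72 to 7.21). For Slc17a6 (6.15 to 8.21) they lay below both Ptc+/- samples (8.88 and 8.80) but overlapped the Gli1-FLAG samples. Tbr1 and Meis2 overlapped both GNP groups.

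Lmx1a, which directs the roof plate and marks unipolar brush cells, read 5.92, 5.54, 6.23 and 6.13 in medulloblastomas 1 to 4, 5.99 and 5.77 in Gli1-FLAG GNPs, against 5.89 and 5.92 in Ptc+/- GNPs. The tumours overlapped both GNP groups. Their differences were 0.05 ± 0.21 (SE, 95% interval -0.45 to 0.55) from Ptc+/- GNPs and 0.08 ± 0.21 from Gli1-FLAG GNPs. After median centring of the arrays the first was 0.40, where the median over all rows was 0.13 in place of 0.01. Eomes, another marker of unipolar brush cells, did part the groups in the same samples, at 5.84 to 6.32 in tumours, 8.73 and 8.80 in Gli1-FLAG GNPs, against 8.65 and 8.93 in Ptc+/- GNPs. The other measured marker of these cells, Plcb4, overlapped both GNP groups, at 8.42 to 9.59 in tumours, 8.57 and 8.38 in Gli1-FLAG GNPs, against 8.73 and 8.54 in Ptc+/- GNPs. Its mean was higher in tumours (8.95) than in Gli1-FLAG GNPs (8.47) and Ptc+/- GNPs (8.63). The 2 measured unipolar brush cell markers summed to 397 to 851 in tumours, 802 and 778 in Gli1-FLAG GNPs, against 823 and 859 in Ptc+/- GNPs. For 8 markers of choroid plexus and roof plate the sums were 1743 to 2324 in tumours, 1550 and 1445 in Gli1-FLAG GNPs, against 1105 and 1566 in Ptc+/- GNPs. The brightest of these was Gdf7, at 10.42 to 10.51 in tumours, 9.77 and 9.76 in Gli1-FLAG GNPs, against 8.82 and 9.79 in Ptc+/- GNPs. Ttr, Kl, Clic6 and Msx1 overlapped both GNP groups. Otx2 also overlapped them, with a lower mean in tumours (6.99) than in Gli1-FLAG GNPs (8.65) and Ptc+/- GNPs (8.67).

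Isl1, which specifies motor and sensory neurons, was dim on every array, at 2.67 to 3.70 in tumours, 3.02 and 3.25 in Gli1-FLAG GNPs, against 3.49 and 4.28 in Ptc+/- GNPs. Nothing can be read from its differences at this signal.

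Of the LIM-only genes, Lmo1 and Lmo4 stood higher in tumours than in GNPs, Lmo2 stood lower, and Lmo3 overlapped, with 3 of 8 arrays in the dim range. Lmo1 (transcript cluster 6970350), known as an oncogene of human T-cell leukaemia and a risk gene of neuroblastoma, read 9.34, 8.58, 7.41 and 8.66 in medulloblastomas 1 to 4. It read 4.91 and 5.06 in Gli1-FLAG GNPs, against 5.06 and 5.48 in Ptc+/- GNPs. Every tumour lay above every GNP sample, medulloblastoma 3 stood lowest among the tumours, and 3 of the 4 GNP signals were dim. The tumour mean of 8.50 ± 0.80 (SD, n = 4) was 3.23 ± 0.47 (SE), or 9.35-fold, above the Ptc+/- GNP mean of 5.27 ± 0.30 (SD, n = 2). It was 3.51 ± 0.47, or 11.4-fold, above the Gli1-FLAG GNP mean of 4.98 ± 0.11 (SD, n = 2), and with dim GNP signals neither fold is exact. The deposited intensities were 652, 362, 127 and 664 in the tumours, 16 and 18 in Gli1-FLAG GNPs, against 42 and 25 in Ptc+/- GNPs. The SD of Lmo1 among tumours lay at the 91.3 percentile of all rows, the highest of the 10 genes, and that of Lmo4 at the 19.6 percentile, the lowest.

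Lmo4 (transcript cluster 6910085), a cofactor of cortical and spinal neurons that is often high in breast cancer, was bright in all samples. Its level was 11.10, 10.83, 11.20 and 11.18 in medulloblastomas 1 to 4, 10.54 and 10.57 in Gli1-FLAG GNPs, against 10.17 and 10.49 in Ptc+/- GNPs. After normalization the 3 groups followed each other without overlap, from tumours down to Ptc+/- GNPs. The tumour mean of 11.08 ± 0.17 (SD, n = 4) was 0.74 ± 0.17 (SE), or 1.67-fold, above the Ptc+/- GNP mean of 10.33 ± 0.22 (SD, n = 2). It was 0.52 ± 0.17, or 1.44-fold, above the Gli1-FLAG GNP mean of 10.55 ± 0.02 (SD, n = 2). The deposited intensities, not scaled between arrays, were 2529, 1626, 1857 and 4208 in the tumours. They were 1031 and 973 in Gli1-FLAG GNPs, against 1724 and 1098 in Ptc+/- GNPs. In these the tumours overlapped Ptc+/- GNPs, and both Gli1-FLAG samples lay below both Ptc+/- samples.

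Sums of 8 microglial markers were higher in all tumours than in all GNP samples, as were Lhx2, Lmo1 and Lmo4, at 5792, 3859, 2841 and 6855 in medulloblastomas 1 to 4, 1784 and 1534 in Gli1-FLAG GNPs, against 1656 and 1383 in Ptc+/- GNPs. Among the tumours medulloblastoma 3 was lowest in these sums and in Lmo1, but had the highest Lmo4 (11.20), and Lhx2 was lowest in medulloblastoma 2 (8.10). The tumours lay above both Ptc+/- samples for 5 of the 8 markers and below both for 1 (19.9% and 22.1% of all rows), and no marker was at 0 on any array. Their part in the levels of the 3 genes was not tested.

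Lmo2 (transcript cluster 6879637), which the making of blood cells and the remodelling of blood vessels require, read 7.62, 7.44, 6.89 and 7.51 in medulloblastomas 1 to 4, 9.21 and 8.94 in Gli1-FLAG GNPs, against 9.29 and 8.65 in Ptc+/- GNPs. All tumours lay below all GNP samples, and the GNP groups overlapped. The tumour mean of 7.37 ± 0.33 (SD, n = 4) differed by -1.61 ± 0.27 (SE), a 3.05-fold lower level, from the Ptc+/- GNP mean of 8.97 ± 0.45 (SD, n = 2), and by -1.71 ± 0.27 from the Gli1-FLAG GNP mean of 9.08 ± 0.20 (SD, n = 2). The deposited intensities of Lmo2 were 187, 180, 90 and 314 in the tumours. They were 406 and 309 in Gli1-FLAG GNPs, against 1007 and 306 in Ptc+/- GNPs. In these, medulloblastoma 4 overlapped both GNP groups. Like normalized Lmo2, the sums of 8 endothelial markers were lower in all tumours than in all GNP samples. They were 756 to 944 in tumours, 2474 and 2503 in Gli1-FLAG GNPs, against 4116 and 1597 in Ptc+/- GNPs. Ptc+/- GNP sample 1, with the highest sum, also had the highest Lmo2, and sample 2, with the lowest sum of the GNPs, had their lowest Lmo2. Within the other groups the order differed. Medulloblastoma 1 had the lowest tumour sum (756) and the highest tumour Lmo2 (7.62). Medulloblastoma 3 had the highest tumour sum (944) and the lowest Lmo2 (6.89). Of the Gli1-FLAG samples, replicate 1 had the lower sum (2474) and the higher Lmo2 (9.21). For 5 of the 8 markers, Kdr and Tek among them, all tumours lay below both Ptc+/- samples, where 22.1% of all rows did so, and for 0 above. Tumours overlapped the Ptc+/- samples in Cdh5, Flt1 and Egfl7. None of the 8 markers was at 0 on any array. For 3 blood cell markers the sums were 84.1 to 155 in tumours, 113 and 105 in Gli1-FLAG GNPs, against 174 and 157 in Ptc+/- GNPs. All tumours lay below both Ptc+/- samples in these sums but overlapped the Gli1-FLAG samples. The marker Alas2 of haem synthesis in red cells was 5.06 to 5.87 in tumours, 6.01 and 5.92 in Gli1-FLAG GNPs, against 6.80 and 6.65 in Ptc+/- GNPs. It differed by -1.24 ± 0.28 (SE; limma, adjusted p = 0.0263) from Ptc+/- GNPs and by -0.48 ± 0.28 (adjusted p = 0.294) from Gli1-FLAG GNPs. The other blood cell markers, the dim Gata1 (-0.05 ± 0.18) and Ptprc (0.00 ± 0.42), did not pass against Ptc+/- GNPs. The part of endothelial and blood RNA in the Lmo2 difference was not tested.

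Lmo3, a neural relative of Lmo1, read 4.79, 5.02, 5.73 and 5.63 in medulloblastomas 1 to 4, 4.99 and 5.28 in Gli1-FLAG GNPs, against 5.87 and 5.54 in Ptc+/- GNPs. The tumours overlapped both GNP groups, with a difference of -0.41 ± 0.30 (SE, 95% interval -1.11 to 0.29) from Ptc+/- GNPs. With arrays centred on their medians it was -0.05.

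**Figure D1:**
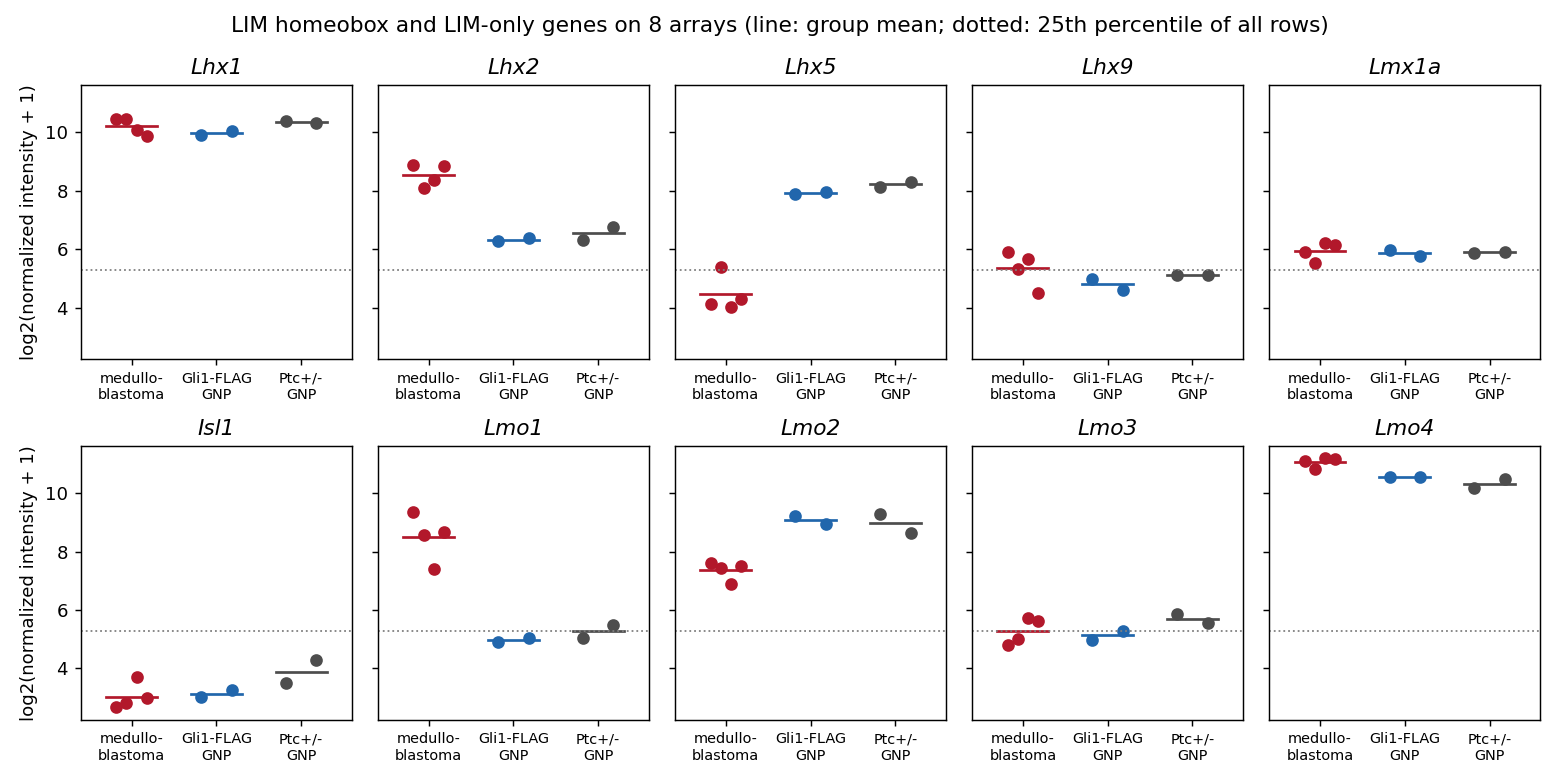
Level of each of the 10 genes as log2(normalized intensity + 1), with 1 point per array for 4 medulloblastomas, 2 Gli1-FLAG GNP samples and 2 Ptc+/- GNP samples, group means as lines and the 25th percentile of all rows (5.28) dotted. The tumour points of Lhx2 (8.10 to 8.87) and Lmo1 (7.41 to 9.34) sit above all GNP points, those of Lhx5 (4.02 to 5.41) and Lmo2 (6.89 to 7.62) below them.

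In the limma fit over all rows, 5 of the 10 genes passed an adjusted p of 0.05 between tumours and Ptc+/- GNPs, 3 higher (Lhx2, Lmo1 and Lmo4) and 2 lower (Lhx5 and Lmo2), where 16.5% of all rows passed (7.54% higher and 8.92% lower). Between tumours and Gli1-FLAG GNPs 4 did, the same genes without Lmo4, where 10.3% of all rows passed (4.65% higher and 5.63% lower). Since the family was picked for such differences, nothing is read from these counts. The tumours did not overlap Ptc+/- GNPs in 5 of the 10, 3 higher and 2 lower, where 42.0% of all rows did not (19.9% higher and 22.1% lower). They did not overlap Gli1-FLAG GNPs in 5 either, 3 higher and 2 lower, where 41.0% of all rows did not (19.6% higher and 21.4% lower). The median difference of the 10 was -0.05 against Ptc+/- GNPs, beside 0.01 over all rows, and 0.20 against Gli1-FLAG GNPs, beside 0.00. Against Ptc+/- GNPs 1 member, Lhx5, passed without Ptc+/- GNP replicate 1. The number was 5 without medulloblastomas 1 and 2 and 4 to 6 on leaving out any other single array. Those passing against Gli1-FLAG GNPs numbered 0 without either Gli1-FLAG array, the lone one then being taken to vary like the other groups, and 4 without any other single array. With arrays centred on their medians the rows that passed against Ptc+/- GNPs split into 1713 higher and 1352 lower, against 1231 and 1456, and Lmo4 did not pass. Among other settings, Lmo4 also did not pass with only the arrays of the groups compared or without medulloblastoma 1. Both tumour comparisons share the tumours and are not independent.

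**Figure D2:**
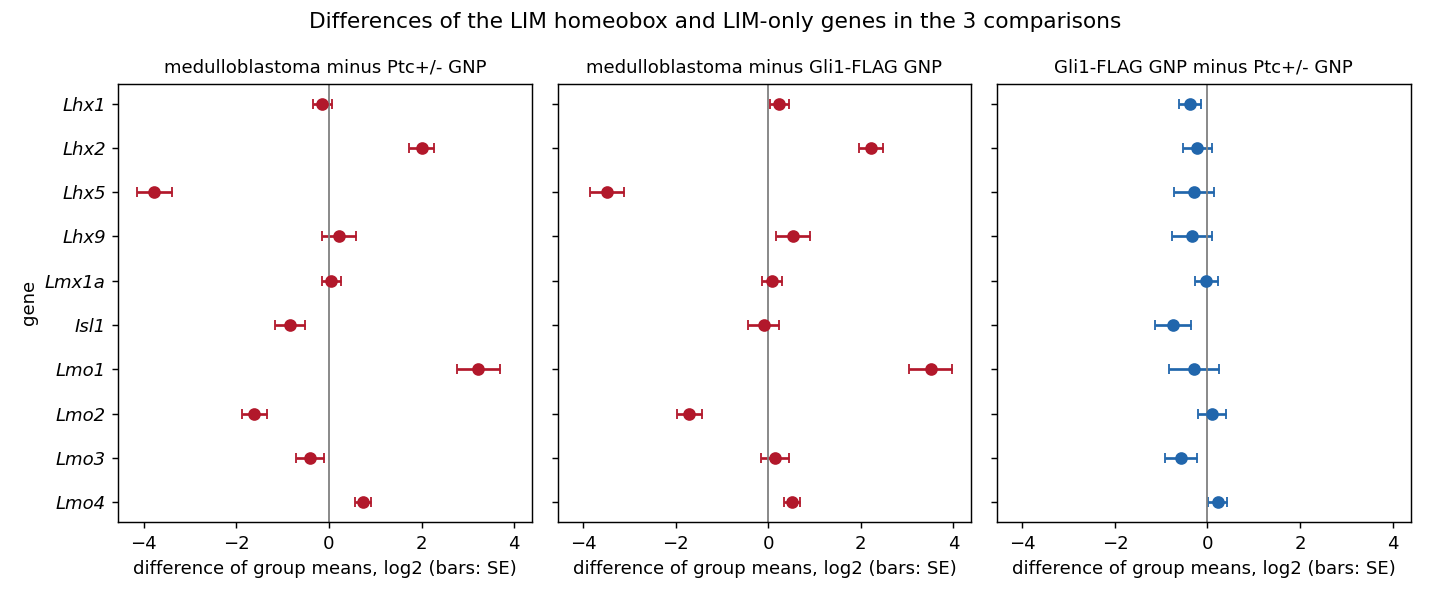
Difference of group means in log2 units for each of the 10 genes (points, with bars of 1 SE) in medulloblastoma minus Ptc+/- GNP, medulloblastoma minus Gli1-FLAG GNP, and Gli1-FLAG GNP minus Ptc+/- GNP. Lmo1 (3.23 and 3.51), Lhx2 (2.00 and 2.22), Lmo2 (-1.61 and -1.71) and Lhx5 (-3.77 and -3.48) lie far from 0 in both tumour panels, and the points of the third panel lie between -0.75 and 0.22.

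The comparison of the GNP groups asks whether precursors with the tagged Gli1 differ in these genes from precursors with 1 targeted Ptch1 allele, at the same age and after the same purification. No member passed. In limma's fit 0 of the 10 genes and 0% of all rows (0 of 16317) had an adjusted p under the threshold, and 0 of the 10 but 3.22% of all rows (525) had an unadjusted p under 0.05. All 10 had an adjusted p = 1 with limma. This fit shares 1 spread per gene over the 3 groups, so its SEs take in that of the tumours, which for Lmo1 was wider (SD 0.80) than in Gli1-FLAG GNPs (0.11) and Ptc+/- GNPs (0.30). With only the 4 GNP arrays fitted, 1721 rows had an unadjusted p under 0.05 and 4 passed after adjustment, none of them a member, and the lowest adjusted p of the 10 with limma was 0.466, for Lhx1. Lmo1 differed by -0.29 ± 0.54 (SE, 95% interval -1.55 to 0.97), Lhx2 by -0.22 ± 0.31 (-0.94 to 0.49), and Lhx5 by -0.29 ± 0.43 (-1.30 to 0.73). Lmo4 differed by 0.22 ± 0.20 (-0.23 to 0.68), Lhx1 by -0.38 ± 0.23 (-0.92 to 0.16), and Lmo2 by 0.10 ± 0.31 (-0.62 to 0.83). The lowest unadjusted p of the 10 was 0.0910, from limma's fit, for the dim Isl1 (-0.75 ± 0.39). The Gli1-FLAG and Ptc+/- arrays did not overlap in 6 of the 10 genes, 1 higher (Lmo4) and 5 lower (Lhx1, Lhx5, Lhx9, Isl1 and Lmo3), where 46.3% of all rows did not overlap (22.3% higher and 24.0% lower).

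Among the other LIM homeobox genes, 2 of 6 rose in tumours against Ptc+/- GNPs, 0 fell and 4 did not pass, with a median of 0.79 beside 0.01 over all rows. Lhx6, which guides cortical interneurons, read 8.45, 8.91, 8.90 and 8.59 in medulloblastomas 1 to 4, 7.77 and 7.74 in Gli1-FLAG GNPs, against 7.78 and 7.84 in Ptc+/- GNPs. Every tumour lay above every GNP sample. It rose by 0.90 ± 0.18 (SE; limma, adjusted p = 0.0183) against Ptc+/- GNPs and by 0.96 ± 0.18 (adjusted p = 0.0219) against Gli1-FLAG GNPs. Isl2, a relative of Isl1 in motor neurons, read 7.50, 7.64, 7.66 and 7.51 in the tumours, 6.79 and 6.94 in Gli1-FLAG GNPs, against 6.56 and 6.97 in Ptc+/- GNPs. It rose by 0.82 ± 0.16 (limma, adjusted p = 0.0193) and by 0.71 ± 0.16 (adjusted p = 0.0375), again with no overlap. The same 2 of 6 passed in both comparisons, where 7.54% and 4.65% of all rows rose, and 0 passed between the GNP groups. Lhx6 did not pass without Ptc+/- GNP replicate 1 (adjusted p = 0.144) or 2 (0.0910), nor, in the second comparison, without Gli1-FLAG replicate 1 (0.200) or 2 (0.175). Isl2 did not pass without Ptc+/- GNP replicate 1 (0.167) or 2 (0.0502), or without medulloblastomas 1 and 2 (0.0638). In its second comparison it passed only without medulloblastoma 4 among the single arrays, the others giving up to 0.297. Lhx3 read 7.43, 6.96, 5.33 and 6.75 in the tumours, 5.14 and 5.58 in Gli1-FLAG GNPs, against 5.27 and 5.84 in Ptc+/- GNPs, and did not pass (1.06 ± 0.54; limma, adjusted p = 0.211).

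Among 6 proteins that bind LIM domains or their adaptor, 1 gene rose, 1 fell and 4 did not pass in tumours against Ptc+/- GNPs, where 7.54% of all rows rose and 8.92% fell, with a median of -0.03 beside 0.01 over all rows. Ldb1, the adaptor that LIM homeodomain and LIM-only proteins share, was bright everywhere, at 11.17, 11.31, 11.29 and 10.91 in medulloblastomas 1 to 4, 10.78 and 10.98 in Gli1-FLAG GNPs, against 10.76 and 10.98 in Ptc+/- GNPs. The groups overlapped, and its difference of 0.30 ± 0.17 (SE) against Ptc+/- GNPs did not pass (limma, adjusted p = 0.271). Its relative Ldb2 read 5.48, 5.28, 5.17 and 5.94 in the tumours, 6.11 and 6.74 in Gli1-FLAG GNPs, against 6.83 and 5.92 in Ptc+/- GNPs, and did not pass either (-0.90 ± 0.33; adjusted p = 0.104). Ssbp4, which binds and steadies Ldb proteins, rose by 0.94 ± 0.17 (limma, adjusted p = 0.0153), at 9.00, 9.40, 8.95 and 8.96 in the tumours, 8.59 and 8.53 in Gli1-FLAG GNPs, against 8.12 and 8.16 in Ptc+/- GNPs. Rlim, an X-linked ubiquitin ligase that targets Ldb proteins, fell by 0.66 (SE 0.14; limma, adjusted p = 0.0247), at 9.40, 9.48, 9.44 and 9.30 in the tumours, 9.84 and 9.68 in Gli1-FLAG GNPs, against 10.19 and 9.95 in Ptc+/- GNPs. For both genes all tumours lay beyond all GNP samples. Neither passed against Gli1-FLAG GNPs (0 of 6) or between the GNP groups (0 of 6). Ssbp4 did not pass without Ptc+/- GNP replicate 1 (adjusted p = 0.126) or 2 (0.0834). Rlim did not pass without Ptc+/- GNP replicate 1 (0.186) or 2 (0.0751), either Gli1-FLAG array (0.0596 each), medulloblastoma 1 (0.0517), or medulloblastomas 1 and 2 together (0.0654).

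Of 13 measured bHLH, GATA and other partners of LIM-only proteins, 2 rose, 2 fell and 9 did not pass against Ptc+/- GNPs, where 7.54% of all rows rose and 8.92% fell, with a median of 0.10 beside 0.01 over all rows. Cbfa2t3, a corepressor that joins the complex of Lmo2 and Tal1 in blood cells, rose by 1.42 ± 0.26 (SE; limma, adjusted p = 0.0145). It read 10.34, 10.39, 10.35 and 9.66 in medulloblastomas 1 to 4, 8.69 and 8.95 in Gli1-FLAG GNPs, against 8.54 and 8.98 in Ptc+/- GNPs. Against Gli1-FLAG GNPs it was the 1 gene of the 13 to pass (1.36 ± 0.26; adjusted p = 0.0229), where 10.3% of all rows did. Nhlh2, a neuronal bHLH gene, fell by 1.46 (SE 0.33; limma, adjusted p = 0.0279), at 8.86, 8.09, 9.44 and 8.88 in the tumours, 9.83 and 9.70 in Gli1-FLAG GNPs, against 10.38 and 10.18 in Ptc+/- GNPs. Its relative Nhlh1 differed by 0.00 ± 0.29. Tcf12, a ubiquitous bHLH partner, fell by 0.66 (limma, adjusted p = 0.0274), and Tal2, a relative of Tal1 used in the midbrain, rose by 0.86 (adjusted p = 0.0374). Tal1 itself read 5.84 to 6.37 in tumours, 5.99 and 6.20 in Gli1-FLAG GNPs, against 5.72 and 6.13 in Ptc+/- GNPs, and did not follow Lmo2 (0.11 ± 0.21). Gata2, also a partner of Lmo2, read 4.58 to 5.19 in tumours, 5.58 and 5.52 in Gli1-FLAG GNPs, against 5.68 and 5.27 in Ptc+/- GNPs, dim in all 4 tumours (-0.48 ± 0.22).

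None of these 4 calls held without Ptc+/- GNP replicate 1 (adjusted p = 0.134 for Cbfa2t3, 0.178 for Nhlh2, 0.165 for Tcf12 and 0.144 for Tal2) or replicate 2 (0.0573 for Cbfa2t3, 0.109 for Nhlh2, 0.129 for Tcf12 and 0.203 for Tal2). Nhlh2, Tcf12 and Tal2 did not pass without either Gli1-FLAG array (adjusted p of 0.0582 to 0.0734). Nhlh2 and Tal2 did not without medulloblastoma 1 (0.0592 and 0.0694), nor did Tal2 without medulloblastoma 2 (0.0585) or 3 (0.0606). With arrays centred on their medians Tcf12 did not pass (0.0605). Without medulloblastomas 1 and 2 together Cbfa2t3 (0.0648), Nhlh2 (0.0519) and Tal2 (0.112) did not. Against Gli1-FLAG GNPs Cbfa2t3 did not pass without Gli1-FLAG replicate 1 (0.213) or 2 (0.141), medulloblastoma 1 (0.0552), or medulloblastomas 1 and 2 (0.0904).

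**Figure D3:**
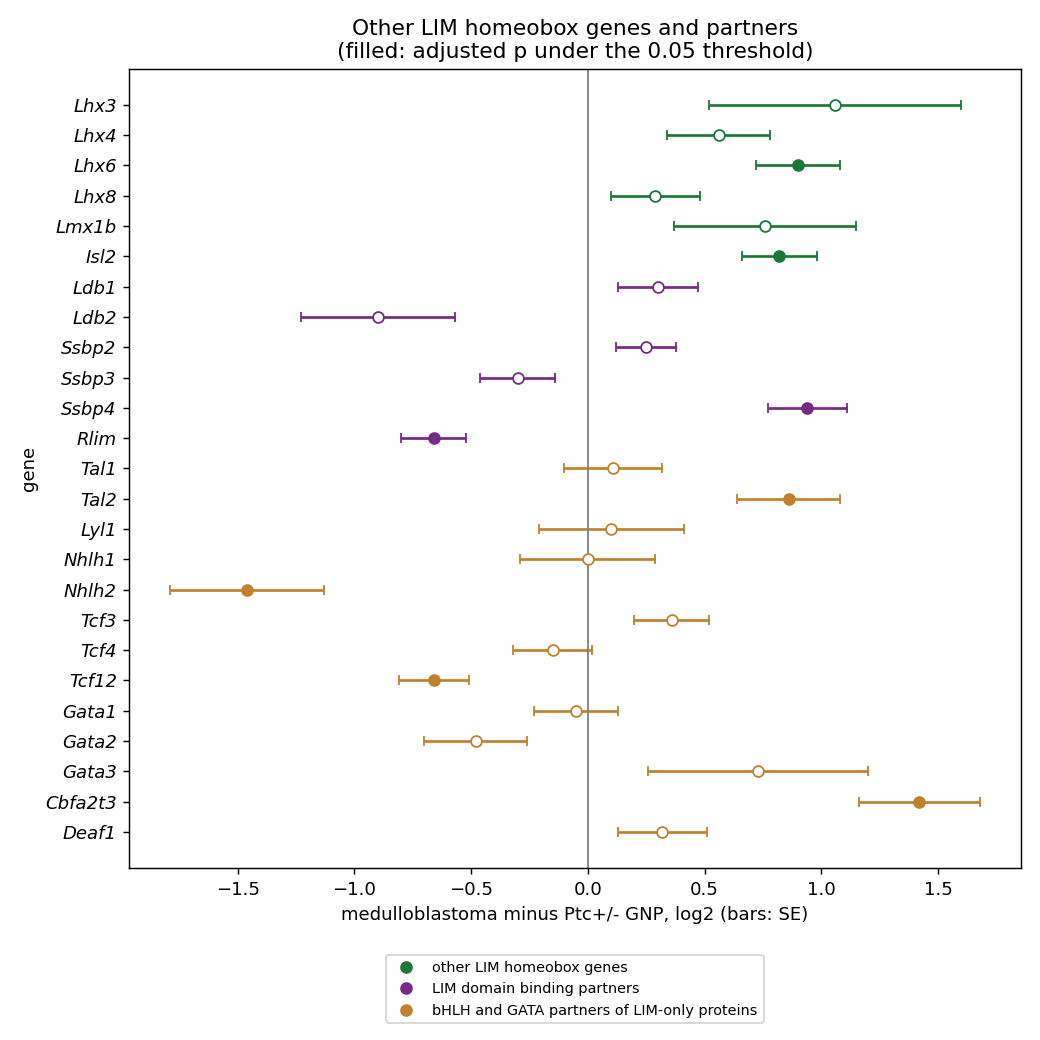
Difference between medulloblastomas and Ptc+/- GNPs in log2 units (points, with bars of 1 SE) for 6 other LIM homeobox genes, 6 genes of LIM domain binding partners and 13 genes of partners of LIM-only proteins, filled where the adjusted p was under 0.05. Lhx6, Isl2, Ssbp4, Tal2 and Cbfa2t3 are filled to the right of 0, Rlim, Nhlh2 and Tcf12 to the left, and Ldb1 (0.30) is open.

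The genes most like Lmo1, Lhx2 and Lhx5 were taken as those at the smallest Euclidean distance over the 8 arrays, after each gene was centred on its mean, among 14048 named genes. All of these arrays share the split of tumours and GNPs, so the likeness mostly repeats that split. Likeness in the order of the tumours is part of the same choice and no separate result. Nearest to Lmo1 were Tecta (distance 1.11), Th (1.27) and Adck5 (1.39). Tecta read 7.97, 7.30, 6.89 and 8.28 in medulloblastomas 1 to 4, 4.73 and 4.39 in Gli1-FLAG GNPs, against 4.17 and 4.63 in Ptc+/- GNPs. Its lowest tumour level was in medulloblastoma 3, as for Lmo1, but its highest was in medulloblastoma 4 and that of Lmo1 in medulloblastoma 1. Nearest to Lhx2 were Whrn (0.63), Eps8l3 (0.66) and Tcerg1l (0.68), each with a higher mean in tumours. Whrn averaged 9.54 in tumours, 7.33 in Gli1-FLAG GNPs and 7.46 in Ptc+/- GNPs. Nearest to Lhx5 were Sypl2 (0.84), Gli3 (1.01) and Cdh10 (1.21). Gli3, which encodes the main repressor among the Gli factors of the hedgehog pathway, read 5.09, 5.54, 4.25 and 4.29 in the tumours, 8.08 and 8.12 in Gli1-FLAG GNPs, against 7.90 and 8.07 in Ptc+/- GNPs. Its highest tumour level was in medulloblastoma 2, as for Lhx5.

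**Figure D4:**
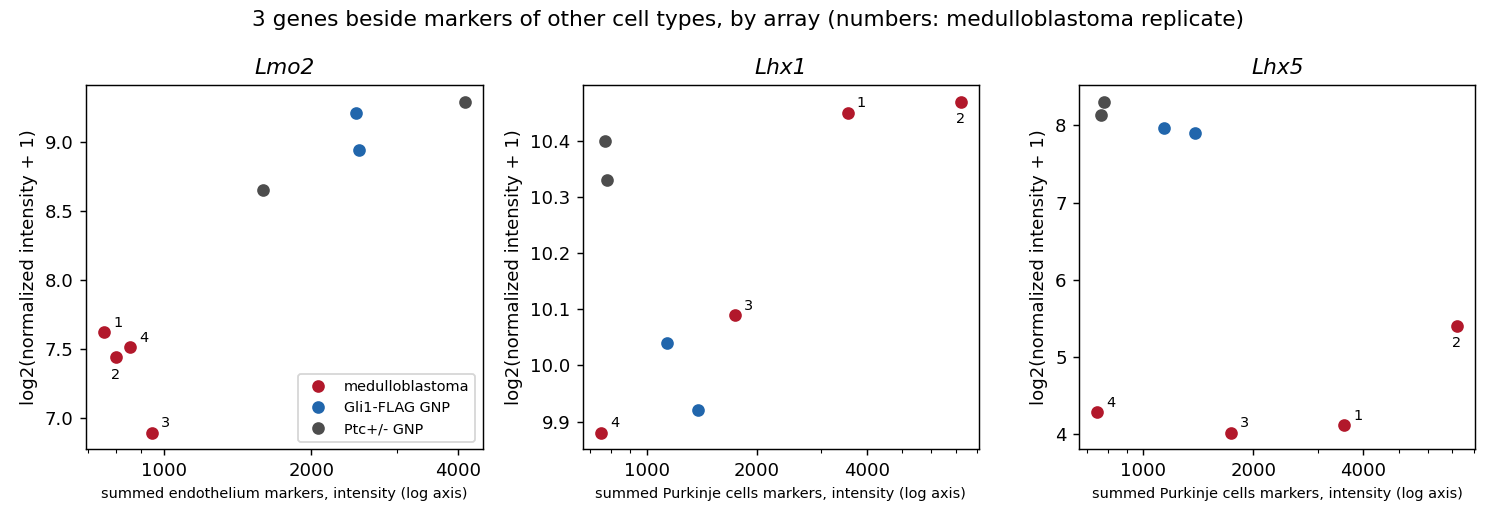
Level of Lmo2 against the summed linear intensity of 8 endothelial markers, and of Lhx1 and Lhx5 against that of 7 Purkinje cell markers, with 1 point per array and numbers for the medulloblastoma replicates; the horizontal axes are logarithmic. Tumours hold the 4 lowest endothelial sums (756 to 944) and the 4 lowest Lmo2 levels, and Lhx5 is low in tumours at Purkinje sums from 748 to 7232.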

How the data were processed

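The labels place 8 samples in 3 groups. The deposited values are linear intensities per transcript cluster, per the file headers 1 column per sample. The submitters' processing notes name genome build mm8. How background was corrected and probes were summarised or scaled is not given in the sources used here. Rows were named through the platform annotation (1146 rows with several symbols, 620 unnamed), and symbols of 10 of 10 members matched RefSeq. Negative intensities (1 value) were set to 0, arrays were quantile normalized, and log2(intensity + 1) was fitted with limma 3.58.1 in R 4.3.3, with 3 group means over 8 arrays (lmFit, eBayes, 2.45 prior and 5 residual degrees of freedom). P-values are two-sided, Benjamini-Hochberg adjusted over 16317 rows, with a threshold of 0.05. The log2 offset understates differences of dim genes. Precision is limited by how few arrays there are.

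The members, lists, markers and tests were chosen with earlier results of these data known. Named were the 10 members, up to 4 genes per list that passed in any comparison, with the lowest p, Ldb1, Ldb2, and the 3 genes nearest to each of Lmo1, Lhx2 and Lhx5 (no members, clones or gene models); Lhx3, Nhlh1, Tal1, Gata2 and single markers were added after their values were seen. Rbbp8 had no row with 1 symbol. Marker sums add linear normalized intensities of measured markers. The markers were listed for Purkinje cells, GABA interneurons, cerebellar nuclei, unipolar brush cells, choroid plexus and roof plate, endothelium, blood cells, microglia, astrocytes, oligodendrocytes and GNPs. The labels call replicates biological and name no animals, so p-values reflect only how these samples vary, part of which may be technical. Alternatives were the arrays fitted, a replicate block, 2 other normalizations, a filter on the lowest 25% of rows, eBayes with trend and robust settings, an offset of 16, each array left out, and, added after seeing the data, medulloblastomas 1 and 2 left out. The fit was tested on simulated data.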

Additional observations from a re-analysis of the deposited data

Results flagged for a closer look

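Within the 4 tumours, a value far from the other 3 was looked for in 35 genes (the 10 members and 25 list genes), where chance gives about 1 in 20 groups. It was found in 3, none of them a member. Ssbp4 was at 9.40 in medulloblastoma 2 (gap to the nearest tumour over the range, 0.900), Gata3, a blood and neuronal GATA factor, at 6.73 in medulloblastoma 3 (0.981), and Cbfa2t3 at 9.66 in medulloblastoma 4 (0.933).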

How the results depend on the processing

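The rows passing numbered 1197, 4 and 811 with only the arrays of the groups compared, for tumours against Ptc+/- GNPs, Gli1-FLAG against Ptc+/- GNPs, and tumours against Gli1-FLAG GNPs, where the main counts were 2687, 0 and 1677. They numbered 1398, 0 and 674 without medulloblastomas 1 and 2. With 1 array left out they ran from 128 to 2898, from 0 to 4, and from 62 to 1980, with the lowest count of each tumour comparison reached without a GNP array of that comparison. The fit on fewer arrays has fewer residual degrees of freedom. The GNP comparison had 1 call with cyclic loess and 1 with trend and robust settings. A block for the replicate number leaves out medulloblastomas 3 and 4 since no other sample has their number, and gave counts of 2019, 1 and 1066. Samples of 1 number did not deviate together (correlations of -0.07 to 0.01), so the labels' numbers pair nothing here. The block moved Lmo4 to 0.63, and Lhx6 and Isl2 against Gli1-FLAG GNPs to 0.92 and 0.70, and these 3 did not pass; nor did Lhx6 (0.87), Rlim (-0.63) or Tcf12 (-0.53) against Ptc+/- GNPs.

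Lmo1, Lhx2, Lhx5 and Lmo2 kept their direction against both GNP groups in each of the 16 alternatives. Over these, Lmo1 ran from 2.80 to 3.69 against Ptc+/- GNPs, Lhx2 from 1.76 to 2.20, Lhx5 from -4.12 to -3.06 and Lmo2 from -1.91 to -1.28. Between the GNP groups, Lmx1a turned to 0.08 with arrays centred on their medians, and on leaving out 1 array Lmx1a ran from -0.14 to 0.08, Lhx2 from -0.43 to 0.00 and Lmo2 from -0.22 to 0.42. The cause was not tested. Every member had 1 row, so no other row could be tried, and Lhx9 and Isl1 fall out with the lowest 25% of rows. Signal in or near the dim range limits Lhx9, Isl1, Lmo3, Lhx5 in tumours and Lmo1 in GNPs.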
